A study of Mus musculus with 18 samples.

Results

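The Hox genes encode the homeodomain transcription factors that give cells their position along the body axis, and in the mouse they sit in 4 clusters, HoxA to HoxD, on different chromosomes. All 39 genes with a symbol of Hoxa, Hoxb, Hoxc or Hoxd and a number were to be taken, and 38 of them were analysed, of 17510 genes with a placed transcription start. The rule uses gene symbols alone. Peaks of 2 histone marks were followed over each cluster from its first to its last analysed gene with 10 kb added at each end.

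The study compared mouse embryonic stem cells of 3 genotypes, labelled Mettl3_Control, Mettl3_KO1 and Mettl3_KO2, all on a C57BL/6 background. The product of Mettl3 is the methyltransferase that writes N6-methyladenosine on RNA. All cells were kept in serum with LIF, 3 µM CHIR99021 (a GSK3 inhibitor) and 1 µM PD0325901 (a MEK inhibitor), and every precipitation held spike-in chromatin. A peak list came with 12 of the 18 samples, 2 for each genotype and mark, and the other 6, input chromatin, were not analysed here. The labels do not say how each knockout was made or whether KO1 and KO2 are clones. The labels do not tie the replicates to separate cultures, and the p-values therefore rest on a spread among libraries that could be technical.

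Hox genes of 1 number in different clusters are paralogs. Within a cluster they lie in order, from group 13 at the 5′ end, used most posteriorly in the embryo, to group 1 at the 3′ end, used most anteriorly. Trimethylation of histone H3 lysine 4 (H3K4me3) marks promoters and acetylation of lysine 27 (H3K27ac) marks active promoters and enhancers. In embryonic stem cells the clusters are textbook examples of bivalent chromatin, in which H3K4me3 lies on the same genes as the repressive Polycomb mark H3K27me3 and the genes are largely silent. H3K27me3 and RNA were not analysed here.

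Lists held 66483 to 83644 H3K4me3 peaks and 29973 to 65398 H3K27ac peaks. Over the genome, H3K4me3 peaks covered 57.3 Mb ± 1.31 (SD, n = 2) in Control, 45.9 Mb ± 0.949 for KO1 and 45.9 Mb ± 5.91 for KO2. H3K27ac peaks covered 14.5 Mb ± 0.186, 18.5 Mb ± 1.5 and 36.2 Mb ± 1.10. Whole lists thus moved with genotype in both marks, and the cluster differences are therefore also given with the same number of peaks taken from every list. Read depth is unknown. Promoters of 9 embryonic stem cell marker genes had a median Control coverage of 92.9% for H3K4me3 and 63.1% for H3K27ac. Of 8 fibroblast markers, which could show feeder cells, 7 had no H3K27ac peak in any library, and their mean H3K27ac coverage was 0% in 5 libraries and 0.584% in the other. Mean H3K27ac coverage of 6 neural marker promoters was 0.854% in Control, 2.82% for KO1 and 17.0% for KO2; that of 4 mesoderm markers was 0%, 1.01% and 5.07%, that of 5 trophectoderm markers 0%, 0.810% and 2.95%, and that of 2 primitive endoderm markers 0% throughout. Over all 17510 genes the H3K27ac means were 6.51% in Control, 8.08% for KO1 and 15.5% for KO2. In KO2 the neural markers Tubb3, Olig2, Nes and Sox1 had 53.2%, 25.5%, 18.9% and 4.46%. Pax6 and Neurog2 had no H3K27ac peak in any library. The part of lineage-marked cells in the Hox values was not tested. Peak lists hold no measure of the Mettl3 deletion itself.

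To set marked beside unmarked Hox starts, 5 promoters are printed: Hoxd13, Hoxa5 and Hoxd8 had an H3K4me3 peak within 2 kb of the start in all 6 libraries, and Hoxa6 and Hoxd4 in none. Each line holds the 250 bases before the transcription start, 5′ to 3′ on the gene's strand, from RefSeq's GRCm38.p6 table, and capitals mark CG dinucleotides. The promoters lie at chromosome 2, 74667975 to 74668224 (Hoxd13, plus strand), chromosome 6, 52204588 to 52204837 (Hoxa5, minus), chromosome 2, 74704365 to 74704614 (Hoxd8, plus), chromosome 6, 52208673 to 52208922 (Hoxa6, minus), and chromosome 2, 74721728 to 74721977 (Hoxd4, plus).
Hoxd13: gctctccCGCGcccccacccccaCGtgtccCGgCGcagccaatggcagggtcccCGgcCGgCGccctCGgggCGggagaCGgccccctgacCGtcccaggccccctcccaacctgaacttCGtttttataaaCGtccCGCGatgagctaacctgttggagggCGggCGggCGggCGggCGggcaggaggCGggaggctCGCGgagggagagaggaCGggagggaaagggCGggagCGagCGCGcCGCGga
Hoxa5: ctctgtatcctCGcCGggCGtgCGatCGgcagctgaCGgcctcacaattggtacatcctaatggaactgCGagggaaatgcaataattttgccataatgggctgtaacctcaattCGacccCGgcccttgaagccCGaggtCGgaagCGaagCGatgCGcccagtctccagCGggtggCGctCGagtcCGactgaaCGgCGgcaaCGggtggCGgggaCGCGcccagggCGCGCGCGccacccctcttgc
Hoxd8: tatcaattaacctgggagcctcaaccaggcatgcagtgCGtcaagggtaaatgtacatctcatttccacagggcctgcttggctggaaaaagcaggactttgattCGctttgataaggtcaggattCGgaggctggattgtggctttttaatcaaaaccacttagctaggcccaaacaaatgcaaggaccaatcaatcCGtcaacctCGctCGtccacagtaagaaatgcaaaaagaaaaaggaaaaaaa
Hoxa6: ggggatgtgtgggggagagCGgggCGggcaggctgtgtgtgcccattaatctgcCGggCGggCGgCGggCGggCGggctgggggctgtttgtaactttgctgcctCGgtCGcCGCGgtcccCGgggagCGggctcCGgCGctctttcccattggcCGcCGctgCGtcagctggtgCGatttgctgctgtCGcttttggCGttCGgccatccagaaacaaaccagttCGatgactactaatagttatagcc
Hoxd4: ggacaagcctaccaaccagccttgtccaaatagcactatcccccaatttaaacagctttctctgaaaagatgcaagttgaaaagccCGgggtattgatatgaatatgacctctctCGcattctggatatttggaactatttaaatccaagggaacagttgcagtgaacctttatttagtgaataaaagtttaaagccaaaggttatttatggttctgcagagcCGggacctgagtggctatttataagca

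The Hoxd13 promoter held 31 CG dinucleotides, Hoxa5 28, Hoxd8 6, Hoxa6 24 and Hoxd4 3. Among these picked promoters, the CG count of the printed bases did not follow the presence of a peak near the start. Hoxd8 had few CG dinucleotides and a peak in every library, and Hoxa6 had many and no peak. The counted bases were not always those under the mark. The H3K4me3 regions of Hoxd8 and Hoxa5 lay downstream of the start, 33 and 54 bp from it. The CG content of the marked bases was not measured. Over the 22 Hox promoters in the table, the median was 12 CG dinucleotides, against 6 over 27025 promoters of the genome and 10 over 17494 protein-coding ones. The 11 Hox promoters with a peak in all 6 libraries had a median of 13 and the 6 with none a median of 9.5. Across the 22 promoters, the CG count and mean Control H3K4me3 coverage had a Pearson r of 0.36 and a Spearman rho of 0.29, as a description over genes that share clusters and libraries.

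Short motifs were searched on both strands of the same 250 bases. The CCAAT box was in 13 of 22 Hox promoters (59.1%) and in 34.5% of all promoters. AGGTCA, a core site of retinoic acid and other nuclear receptors, was in 6 Hox promoters (27.3%) against 13.8%: Hoxb4, Hoxc4, Hoxd3, Hoxd4, Hoxd8 and Hoxd10. TTTATG, a caudal-type (Cdx) core, was in 22.7% against 11.1%, the TATA box TATAAA in 13.6% against 13%, and the homeodomain core TAATTA in 4.55% against 4.91%. These are letter matches only.

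H3K4me3 covered a small part of every cluster, and HoxC carried the most. In bulk cells, fewer cells with a mark and less of the mark per cell cannot be told apart. HoxC (135.7 kb, 9 genes) was covered to 8.74% and 9.47% in the Control libraries, 8.73% and 8.55% for KO1, and 8.88% and 7.24% for KO2. HoxB (193.9 kb, 10 genes) had 6.90% and 6.16%, 5.09% and 5.52%, and 7.11% and 5.38%. HoxA (118.5 kb, 10 genes) had 5.15% and 5.35%, 4.03% and 3.12%, and 5.26% and 4.71%. In these clusters at least 1 knockout library lay inside or above the Control range, and the two-sided exact permutation p was 0.4 for HoxC, 0.4 for HoxB and 0.267 for HoxA (adjusted p = 0.457, 0.457 and 0.427). With equal peak numbers the differences of the knockout from the Control libraries were -0.266 points in HoxC (from -0.753), -0.678 in HoxB (from -0.760) and -0.715 in HoxA (from -0.970).

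The H3K4me3 means of both lines were below Control in all 4 clusters, and HoxD was the 1 cluster whose knockout and Control libraries did not overlap. HoxD (116.9 kb, 9 genes) had 6.30% and 6.63% in Control, 4.51% and 3.90% for KO1, and 4.54% and 3.96% for KO2. All 4 knockout libraries lay below both Control libraries, the means being 0.651 (KO1) and 0.657 (KO2) of Control. The difference was -2.24 percentage points, with an exact permutation p of 0.0667, the smallest that 15 assignments allow, and an adjusted p of 0.4 over 8 cluster comparisons, and it was -2.02 points with equal peak numbers. As background, 44.9% of the genome's 140-kb windows with at least 1% mean H3K4me3 coverage also had all 4 knockout libraries below both Control libraries, so the order alone sets HoxD apart little. H3K4me3 coverage of all of chromosome 2 was 0.805 (KO1) and 0.773 (KO2) of Control, so HoxD lay below its chromosome in both lines, a difference that was not tested.

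H3K27ac was nearly absent from the clusters in Control, and both KO2 libraries had the most of it in HoxA, HoxB and HoxC. HoxB had 0.736% and 0.458% in Control, 0.964% and 0.682% for KO1 and 2.64% and 3.66% for KO2. HoxC had 0% and 0.158% in Control, 1.14% and 1.14% for KO1, and 2.16% and 2.84% for KO2. HoxA had 0.250% and 0.384%, 0.517% and 0.278%, and 0.828% and 0.947%. Only HoxC had every knockout library above both Control libraries, as did 48.6% of the 140-kb windows with at least 0.1% mean H3K27ac coverage. The exact permutation p was 0.133 for HoxC, 0.2 for HoxB and 0.2 for HoxA, each with an adjusted p of 0.4, so none passed the threshold. With equal peak numbers the difference of the knockout from the Control libraries was 0.718 points in HoxC (from 1.74), 0.867 in HoxB (from 1.39) and 0.294 in HoxA (from 0.326).

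HoxD had no such pattern. Its H3K27ac coverage was 0.155% and 0.174% in Control, 0.199% and 0% for KO1, and 0% and 0.309% for KO2 (exact permutation p = 0.867), with overlapping groups. The HoxD libraries held at most 2 H3K27ac peaks each, so small differences there were not detectable.

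**Figure D1:**
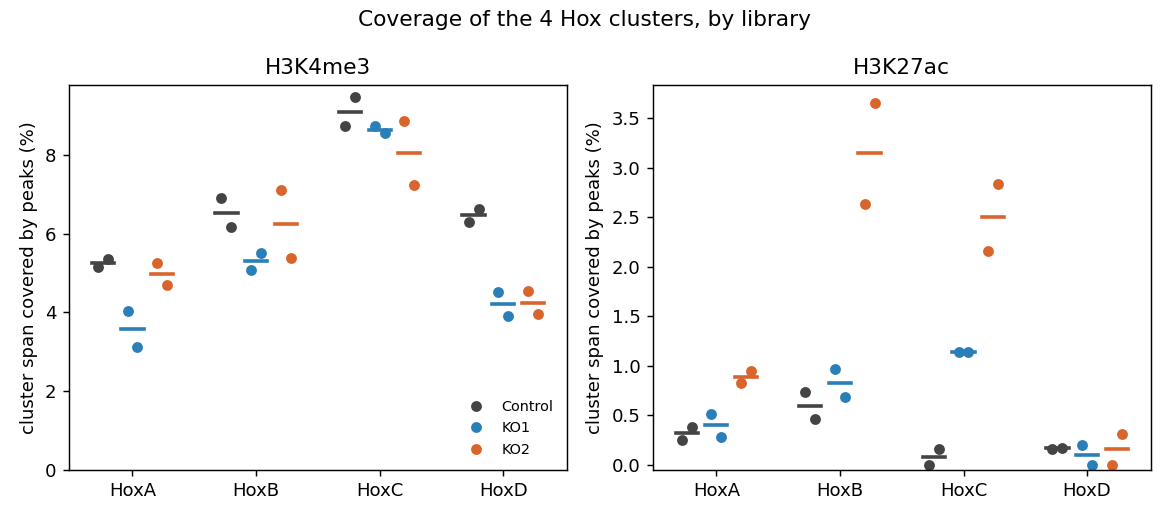
Percent of each Hox cluster, with 10 kb on each side, covered by H3K4me3 (left) and H3K27ac (right) peaks. Each dot is a library, bars are the means of 2, and colours are Control (grey), KO1 (blue) and KO2 (orange); HoxD H3K4me3 is lower in all 4 knockout libraries, and H3K27ac of HoxB and HoxC is highest in KO2.

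Over the 565 kb of all clusters, H3K4me3 coverage was 6.87% ± 0.0211 (SD, n = 2) in Control, 5.52% ± 0.149 for KO1 and 6.00% ± 0.864 for KO2. These were 0.803 and 0.874 of Control, beside 0.802 and 0.801 for the whole genome. H3K27ac coverage was 0.324% ± 0.0180, 0.661% ± 0.134 and 1.90% ± 0.426, which is 2.04 and 5.85 times Control, beside 1.28 and 2.50 for the genome. With so little H3K27ac in the Control clusters, small added lengths give large ratios, and the difference from the genome was not tested. The clusters were poor in H3K27ac relative to H3K4me3 in every genotype. The length under H3K27ac, as a percent of that under H3K4me3, was in Control 6.02% ± 1.64 in HoxA, 9.05% ± 2.28 in HoxB, 0.833% ± 1.18 in HoxC and 2.54% ± 0.115 in HoxD, against 25.3% ± 0.904 genome-wide. In KO2 it was 17.9% ± 3.08, 52.5% ± 21.8, 31.8% ± 10.5 and 3.90% ± 5.52, against 79.5% ± 7.83.

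The map of peaks along the clusters shows where these lengths lie. Peaks of the 6 libraries of a mark, joined when within 500 bp, formed 66 H3K4me3 regions in the clusters, of which 28 held a peak in all 6 libraries and 16 in a single library. Counted base by base, 46.1% of the bases under H3K4me3 lay within 2 kb of a Hox start, 9.39% elsewhere in a Hox gene, 38.5% between Hox genes and 6.03% outside the outermost analysed genes. The clusters differed in this. Between Hox genes lay 69.1% of the bases under H3K4me3 in HoxB and 40% in HoxC, against 6.64% in HoxA and 3.84% in HoxD, where such sequence makes up 45.2%, 27.8%, 15.3% and 16.5% of the span. H3K27ac formed 18 regions, with 63.8% of the covered bases between Hox genes, 24% outside the outermost analysed genes and 12.2% within 2 kb of a start. Of the 18 regions, 2 held a peak in all 6 libraries, and 7 held one in at least 2 knockout libraries and in neither Control.

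**Figure D2:**
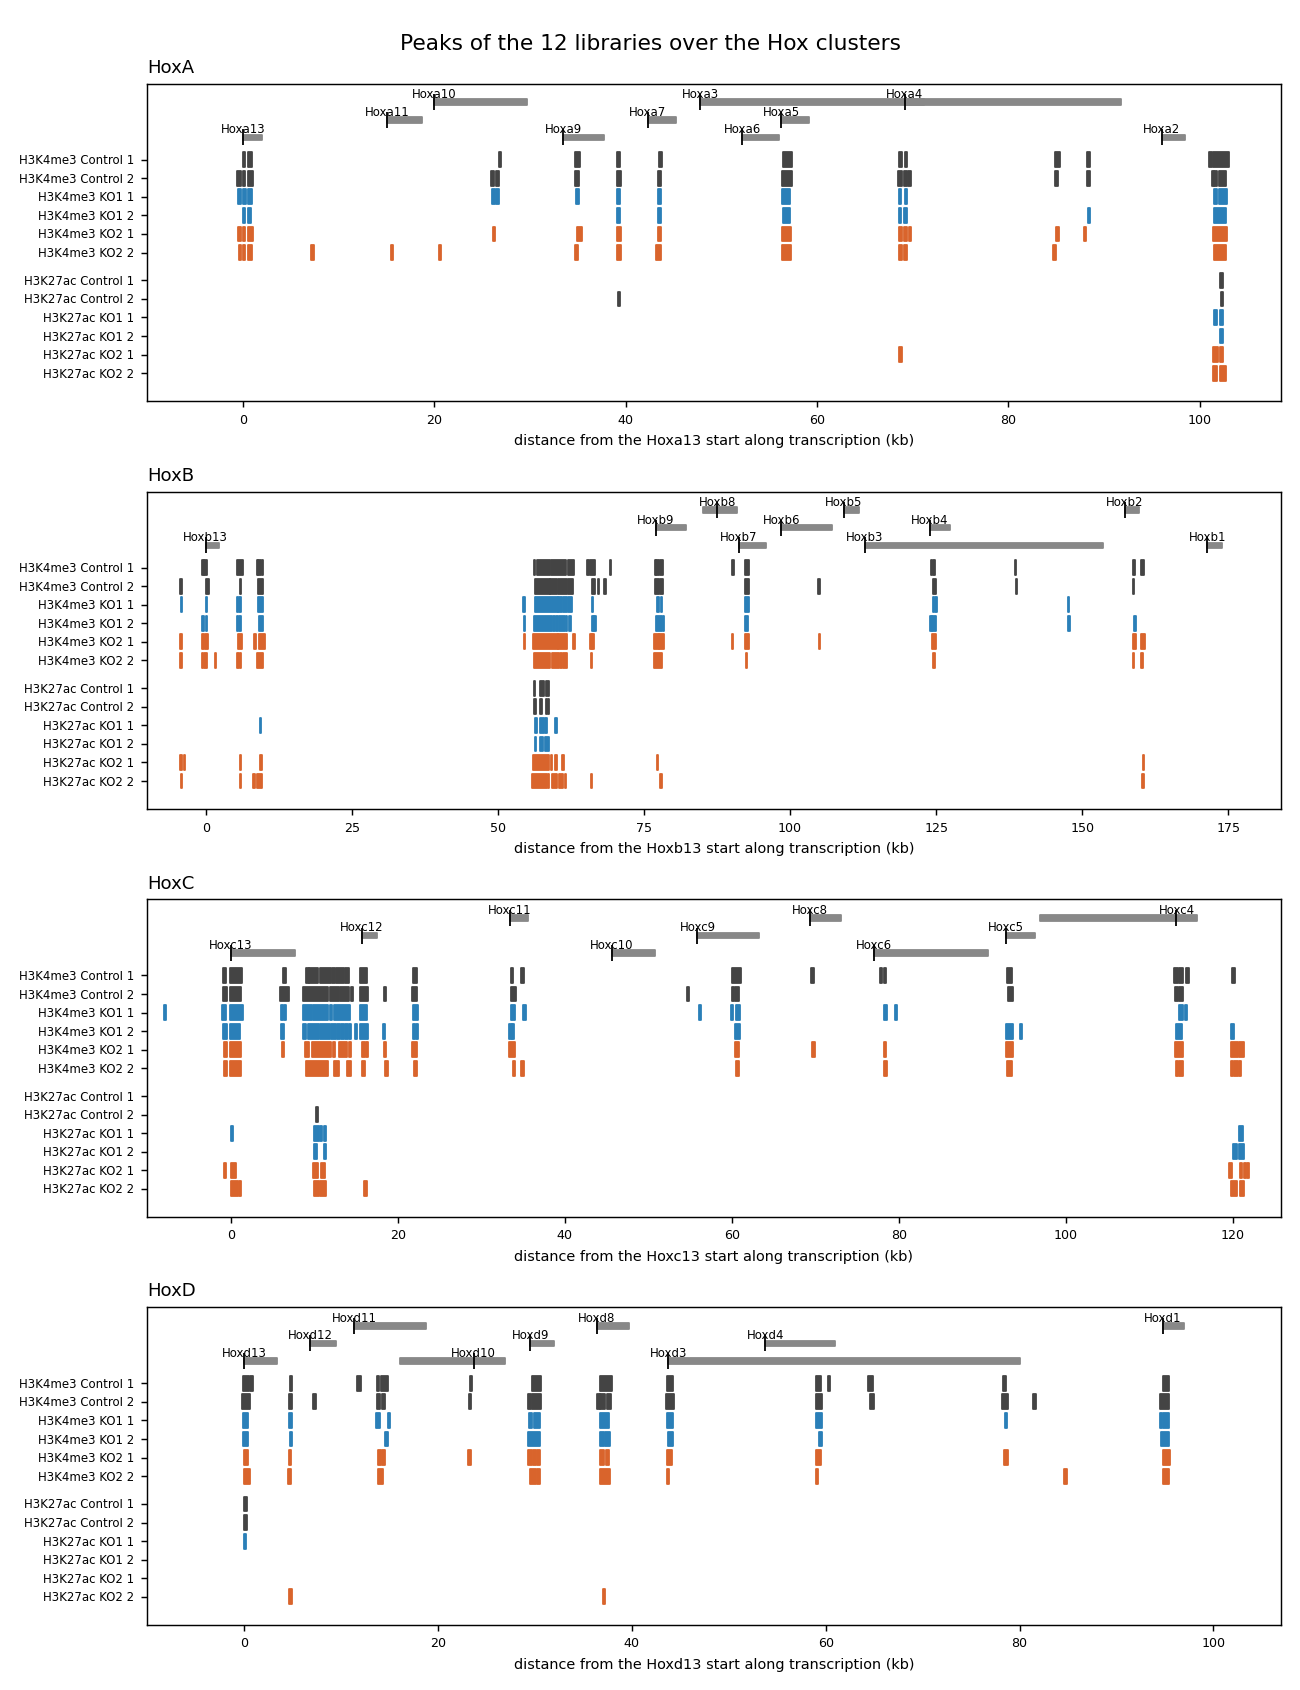
Peaks of each library along each cluster, plotted as distance in kb from the start of the group 13 gene in the direction of transcription. Rows are libraries (Control grey, KO1 blue, KO2 orange), the upper bars are genes with a tick at the start used. The longest blocks lie between Hoxb13 and Hoxb9, and from the interval between Hoxc13 and Hoxc12 into Hoxc12.

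The longest H3K4me3 block of HoxB was in no Hox gene. It lay at mm10 chromosome 11, 96250326 to 96257374, over the Hoxb13-side end of the annotated long noncoding RNA gene Gm53 and 13956 bp from the Hoxb9 start, in the wide interval between Hoxb13 and Hoxb9. It held 6088 and 6069 bp of H3K4me3 in Control, 5771 and 5358 bp for KO1 and 5881 and 4920 bp for KO2. The block was present at similar length in every library, and a single peak of 4252 bp in KO2 replicate 1 was wider than 99.1% of that library's peaks. H3K4me3 was lower in the knockout libraries at its Hoxb9 side. The 5-kb tile at 96255001 to 96260000 was covered to 45.1% and 38.3% in Control, 32.3% and 26.1% for KO1, and 26.5% and 19.7% for KO2. The next tile, 96260001 to 96265000, had 19.4% and 22.1%, 3.8% and 10.0%, and 10.2% and 5.06%. All knockout libraries lay below both Control libraries in both tiles.

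By limma on all tiles with a mean of at least 5%, those differences were -15.5 points (SE 3.81, adjusted p = 0.0368) and -13.5 points (SE 2.72, adjusted p = 0.0203). They were the only calls for both lines minus Control among 38 tested H3K4me3 tiles of the 110 tiles in the clusters. Lower calls were 19.2% of all tested tiles, so 2 of 38 is below the background, and higher calls, of which the clusters had 0 in this contrast, were 3.66%. Leaving out Control replicate 2, KO1 replicate 1 or KO2 replicate 2 left 0 of these calls, and leaving out Control replicate 1 or KO1 replicate 2 left 1. Quantile normalization changed the balance, to 3919 higher and 4382 lower tiles in the genome, from 1251 and 6558. It left the second tile called (-10.2 points, adjusted p = 0.0355), not the first (-7.12 points, adjusted p = 0.166), and called the tile before them, 96250001 to 96255000, higher (16.0 points, adjusted p = 0.00876). For KO2 alone it gave 4 higher and 0 lower Hox tiles, against 1 and 2 without it. Over all 34200 tested tiles, KO2 calls were 4591 higher and 4777 lower with it, and 1777 and 6474 without it.

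The same Gm53 block was also the site of most HoxB H3K27ac. Between 96250204 and 96255984, H3K27ac peaks covered 1428 and 889 bp in Control, 1687 and 1323 bp for KO1, and 3668 and 4397 bp for KO2. KO2 was above all other libraries, and Control and KO1 overlapped. In the tile at 96250001 to 96255000 coverage was 28.6% and 17.8%, 33.7% and 26.5%, and 67.8% and 73.5%. KO2 minus Control was 47.5 points (SE 5.23, limma adjusted p = 0.000534), and KO1 minus Control was 6.93 points (SE 5.23, adjusted p = 0.546). The lines differed from each other by 40.6 points (SE 5.23, adjusted p = 0.00131), in a contrast that called 58.6% of tested tiles higher. After quantile normalization these were 22.2 points for KO2 minus Control (adjusted p = 0.0230) and 19.0 points for KO2 minus KO1 (adjusted p = 0.0479).

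Smaller HoxB H3K27ac regions appeared mainly in KO2. Over the long noncoding RNA genes Gm30134 and Gm11538, downstream of Hoxb13, a region at 96202493 to 96204045 had 0 bp in both Control libraries, 183 and 0 bp for KO1, and 337 and 1280 bp for KO2. Inside Hoxb9, from 96271533 to 96272404, only the KO2 libraries had peaks, of 261 and 335 bp. A region 2870 bp from the Hoxb2 start had 175 and 384 bp, also in KO2 alone. Hoxb9 takes part in patterning the thoracic skeleton, and Hoxb2 works in the hindbrain.

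HoxC had H3K27ac in 2 or more libraries at 3 places, 1 of them a Hox promoter. Hoxc13, needed for hair and nails, carried the broadest H3K4me3 of all Hox promoters, a window coverage of 38.3% and 44.1% in Control, 49.7% and 40.3% for KO1, and 40.6% and 40.2% for KO2. In contrast to that even H3K4me3, H3K27ac there was 0% and 0% in Control, 4.47% and 0% for KO1, and 21.9% and 25% for KO2. Hoxc13 was the only Hox promoter that reached the 5% mean needed for the H3K27ac test, and it did so through KO2 alone, the mean of the other 4 libraries being 1.12%. It was thus tested only because KO2 was high, and its differences are given with no p. They were 23.4 points for KO2 minus Control (SE 2.63), 2.24 points for KO1 minus Control and 21.2 points for KO2 minus KO1. Of all tested promoters, 89.6%, 0.284% and 77.7% were called higher in these contrasts. After quantile normalization the KO2 differences were 7.50 points from Control and 8.59 points from KO1, and neither was called.

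The second HoxC place lay between genes, 4264 bp from the Hoxc12 start at 102930999 to 102932562, within the long H3K4me3 block from 102929802 to 102937628. There H3K27ac covered 0 and 214 bp in Control, 885 and 560 bp for KO1, and 1062 and 1242 bp for KO2. H3K4me3 of the block was 5046 and 6323 bp, 5762 and 6024 bp, and 4605 and 4067 bp, so H3K4me3 was shortest in KO2, where H3K27ac was longest. The third place lay past the 3′ end of Hoxc4, in the long noncoding RNA gene Gm30528 at 103040732 to 103042977. It had no H3K27ac peak in either Control library, 489 and 989 bp for KO1, and 997 and 1308 bp for KO2.

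At both places H3K27ac of all 4 knockout libraries was above both Control libraries. In their 5-kb tiles the difference of both lines from Control was 16.6 points (SE 2.86) between Hoxc13 and Hoxc12 and 18.9 points (SE 3.41) in Gm30528. Neither tile reached the filter in Control, with means of 2.14% and 0%, so these differences are given with no p. In KO1 alone they were 12.3 and 14.8 points, and after quantile normalization 8.82 and 11.9 points for both lines. The Gm30528 tile also had more H3K4me3 in KO2, with 27.7% and 16.4% against 6.24% and 0% in Control and 0% and 7.28% in KO1. That difference, 18.9 points in KO2 (SE 4.75), was the 1 higher H3K4me3 call of the clusters in KO2, where 5.2% of tested tiles were called higher. Without KO2 the tile's mean was 3.38%, below the 5% needed, so it was tested because KO2 was high.

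Only 6 of the 110 tiles reached the 5% mean needed for the H3K27ac test, and 5 of them were higher in both lines together (1 in HoxA, 1 in HoxB, 3 in HoxC), beside 54.4% of all tested tiles. In KO2 alone all 6 were higher, beside 74%, and in KO1 alone 0 were, beside 0.377%. Of the 6 tiles, the Gm53 tile alone reached the 5% mean in Control, so these counts are a description and support nothing. At an unadjusted limma p under 0.05, 2 were higher in KO1, beside 3965 of all 21484 tested tiles in either direction. After quantile normalization 0 of the 6 were called for both lines, 2 for KO2 and 1 for KO2 minus KO1. Of 21484 tested tiles, 1097, 2787 and 2154 were then called higher in these contrasts. Leaving out either Control library left 1 of the 6 called for both lines. The HoxA tile, which overlaps the long noncoding RNA genes Hotairm1 and Hotairm2, had H3K27ac coverage of 5.92% and 4% in Control, 12.3% and 6.58% for KO1, and 16.6% and 22.4% for KO2.

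**Figure D3:**
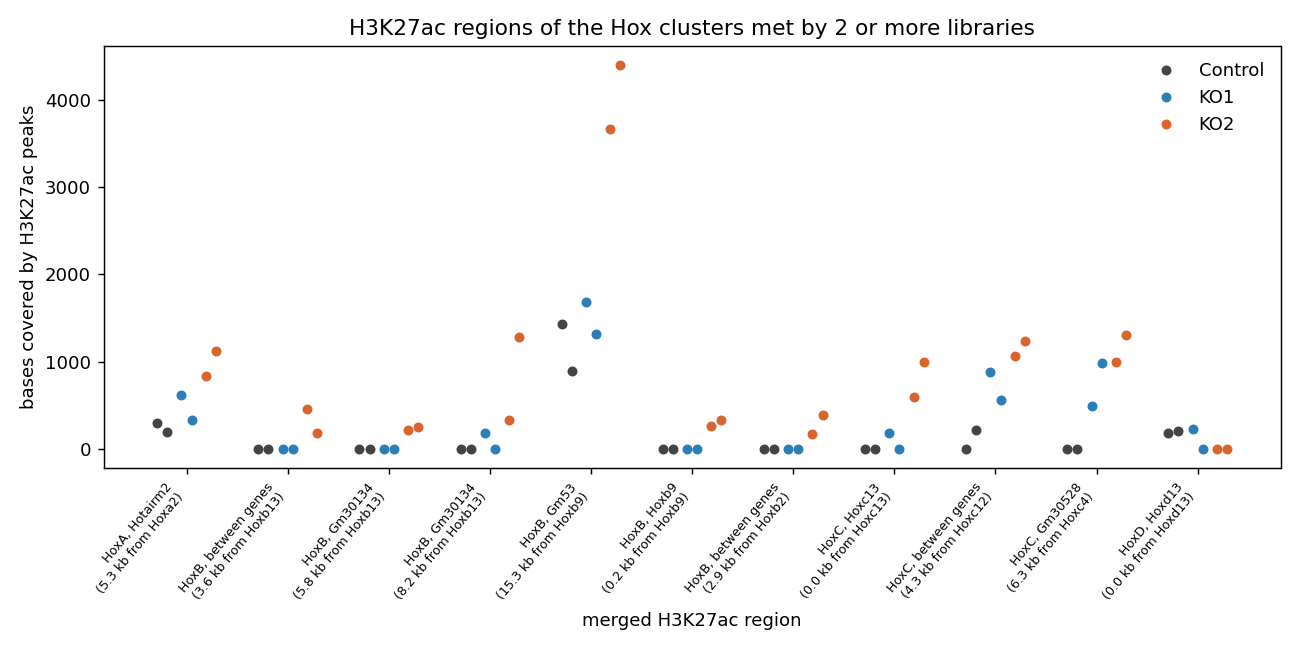
Bases covered by H3K27ac peaks in each merged region of the Hox clusters that at least 2 libraries met, 1 dot per library (Control grey, KO1 blue, KO2 orange), labelled by an overlapping gene and the distance to the nearest Hox start. The Gm53 region reaches 4397 bp in KO2, and the Gm30528 region has no peak in Control.

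At the promoters, taken as 2 kb on each side of the start, 18 of 38 Hox genes had an H3K4me3 peak in all 6 libraries, 10 in some and 10 in none. The number with a peak was 25 and 23 in Control, 21 and 20 for KO1, and 24 and 24 for KO2. The 10 without a peak were Hoxa2, Hoxa3, Hoxa6, Hoxb1, Hoxb3, Hoxb5, Hoxb6, Hoxb8, Hoxc10 and Hoxd4. With the whole gene and 2 kb on each side, 4 genes still had no H3K4me3 peak in any library: Hoxa2 and Hoxb1, which act in the hindbrain, Hoxb5 and Hoxc10. These wider windows can take in peaks of a neighbour. That of Hoxa6 takes in the region at 52203457 to 52204533 in Hoxa5, and that of Hoxb8 the region at 96286551 to 96287269 in Hoxb7. At the starts used, HoxB thus had 5 of its 10 promoters bare, and HoxD, with 6 of 9 marked in every library, had 1 bare promoter. The starts of Hoxb3, Hoxb5 and Hoxb6 were taken from the gene end, whereas all HoxD starts came from the promoter table. Over whole genes, 2 HoxB genes and 0 HoxD genes were bare. The part of start placement in this contrast was not tested.

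Of the 38 promoters, 21 reached the mean of 5% needed for the H3K4me3 test, and 0 were called by limma in any contrast. Over all tested promoters, lower calls were 4.19% and higher calls 0.674% for both lines minus Control, 0.902% and 0.142% for KO1, 4.38% and 1.05% for KO2, and 0.237% and 0.513% for KO2 minus KO1. At an unadjusted limma p under 0.05, 1 Hox promoter was lower and 0 were higher for both lines, and 2 were lower for KO1 and 3 for KO2. For KO2 minus KO1, 4 were higher and 1 lower. Of all 10536 tested promoters, 2407, 1819, 2554 and 1397 passed that p in these contrasts, in either direction. The median difference of the tested Hox promoters was -1.45 points, beside -2.11 points over all tested promoters. In 3 of the 21, Hoxa5, Hoxd3 and Hoxd13, all knockout libraries lay below both Control libraries, against 22.5% of all tested promoters, and in 0 they lay above, against 6.11%.

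The posterior HoxD gene Hoxd13, which shapes digits and the genital tubercle, had the largest H3K4me3 difference of the mean of both lines from Control among Hox promoters. Its window was covered to 20% and 20.8% in Control, 12% and 13.2% for KO1, and 9.02% and 13.4% for KO2, with no overlap between Control and knockout. The difference was -8.48 points (SE 2.31), which missed the threshold at a limma adjusted p of 0.0750. Over the whole gene with 2 kb on each side, a window added after seeing the data, Hoxd13 was called at -4.03 points (SE 1.13, adjusted p = 0.0215), and Hoxc9 at -3.72 points (SE 0.977, adjusted p = 0.0167), beside 36% of all tested genes called lower. Hoxd13, whose promoter is printed above, was also the only Hox start with H3K27ac in both Control libraries, 4.52% and 5.07%. KO1 had 5.82% and 0% there, and neither KO2 library had a peak, the opposite order to Hoxc13.

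Neighbouring HoxD genes, which act with Hoxd13 in the limb, had little H3K4me3 at their starts. Hoxd10 had 6.27% and 7.62% in Control, 0% and 0% for KO1, and 6.12% and 0% for KO2. Hoxd11 had a peak in its window in 1 Control library alone, at 8.90%. Further inside Hoxd11, 2284 bp from the start used, a region held 161 to 842 bp of H3K4me3 in all 6 libraries. Hoxd12 stayed between 1.67% and 5.95% in all 6 libraries. None of these 3 reached the mean needed for the test.

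The mark was broadest at Hoxd8 and Hoxd9, in the middle of the cluster, and absent from the Hoxd4 start in all 6 libraries. Hoxd8 had 31.0% and 24.4% in Control, 21.8% and 23.1% for KO1, and 17.7% and 26.7% for KO2, with overlapping groups. Hoxd9 was between 21.1% and 29.2% in all libraries, and Hoxd1 between 15.1% and 23.2%. Hoxd3 did not overlap, with 16.3% and 20.4% in Control, 14.4% and 13.6% for KO1, and 14.6% and 5.12% for KO2 (-6.42 points, SE 3.04, limma adjusted p = 0.256).

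In HoxA, Hoxa5, a gene of lung and neck development, was the highest in Control. Its coverage was 25.3% and 25.4% in Control, 21.1% and 17.6% for KO1, and 23.9% and 23.4% for KO2 (-3.85 points, SE 2.38, limma adjusted p = 0.386). Hoxa9, a regulator of blood progenitors, had 12.9% and 12.2% in Control, 6.37% and 0% for KO1, and 13.6% and 7.90% for KO2. For both lines together it had the largest difference of HoxA (-5.60 points, SE 2.70, adjusted p = 0.262), and its KO2 libraries lay on both sides of Control. Hoxa4 was between 12.4% and 19.7% in all libraries, Hoxa7 between 4.87% and 13.6%, and Hoxa13, which like Hoxd13 builds digits, between 11.4% and 27%. Hoxa10 and Hoxa11 had a peak in KO2 replicate 2 alone.

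In HoxB, Hoxb9 was the highest, with 27.9% and 28.6% in Control, 18.9% and 27.7% for KO1, and 37.9% and 34.5% for KO2. KO2 was above and KO1 below Control. KO2 minus KO1 was 12.9 points (SE 3.64), which was not called (limma adjusted p = 0.186). Hoxb13, the most 5′ gene of the cluster, had a like order of means, with 16.3% and 12.9%, 6.57% and 13%, and 18.8% and 21.7%. Its difference between the lines was 10.4 points (SE 3.10, adjusted p = 0.212). For both lines together Hoxb7 had the largest difference from Control in HoxB, -7.72 points (SE 4.72, adjusted p = 0.381), with libraries from 5.22% to 25.7% and overlapping groups. Hoxb4, known for its role in blood stem cells, was between 8.82% and 24.3%, and Hoxb2 between 0% and 12.7%.

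In HoxC, Hoxc12 went the other way from Hoxb9, with 31.9% and 41.2% in Control, 34.7% and 43.9% for KO1, and 24.8% and 21.7% for KO2. Both KO2 libraries were the lowest, and KO2 minus KO1 was -16.0 points (SE 4.41, limma adjusted p = 0.178). Hoxc11 was between 11.7% and 19.0%, and Hoxc4 between 17.0% and 30.1%. Hoxc5 lacked a peak in KO1 replicate 1 and was between 15.4% and 23.5% in the others. Hoxc6 had a peak in its window in 4 libraries, and Hoxc8 and Hoxc9 in 2 each, at no more than 10.1% of the window. Further inside Hoxc9, 4029 bp from the start used, a region held 351 to 1068 bp of H3K4me3 in all 6 libraries.

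**Figure D4:**
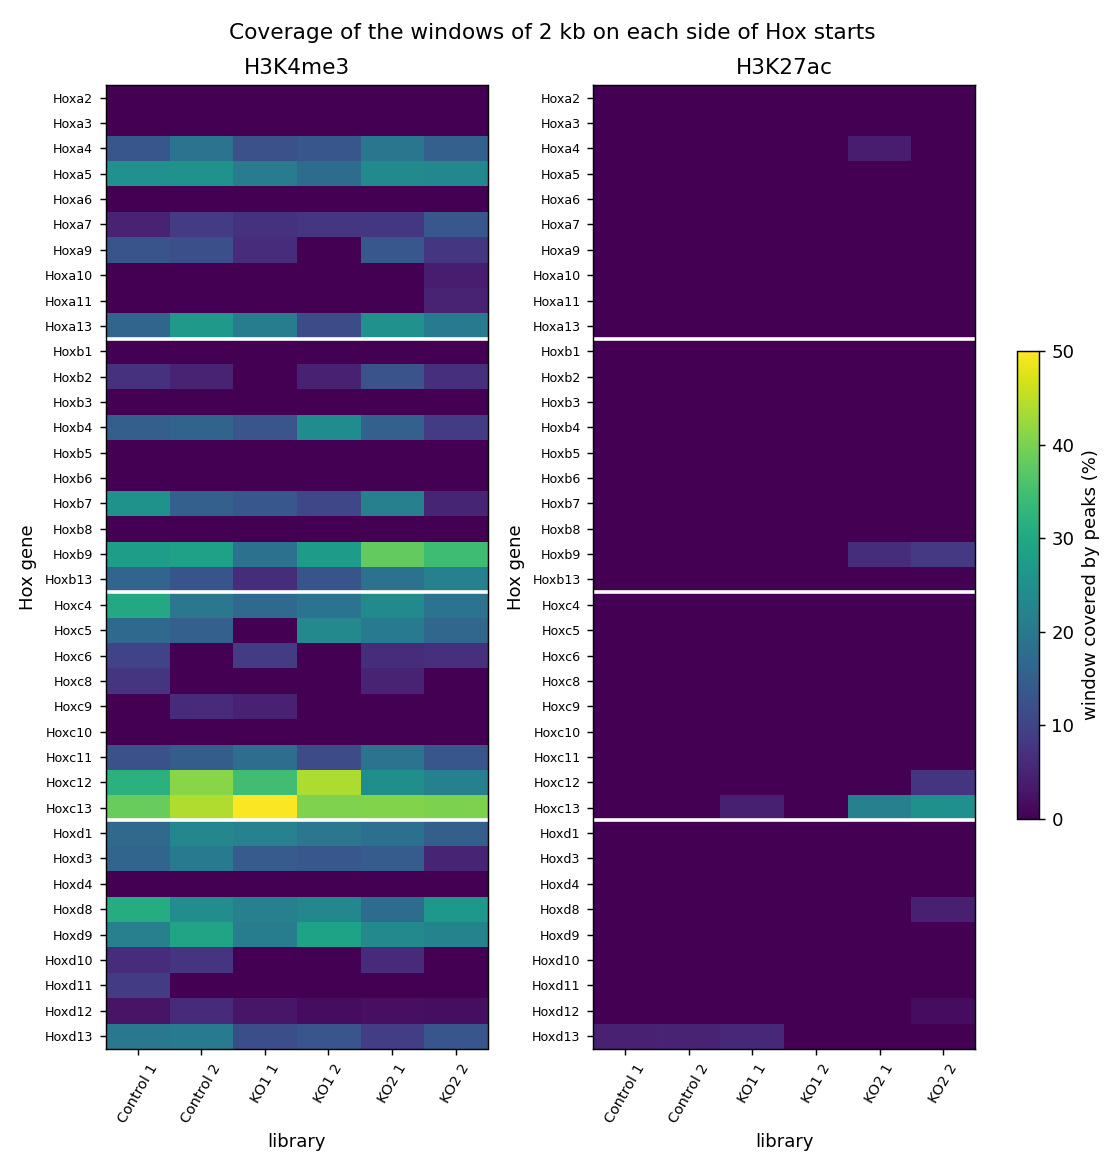
H3K4me3 (left) and H3K27ac (right) coverage of the window, 2 kb on each side, at each of 38 Hox starts (rows, ordered by cluster and number) in each library (columns), as percent of the window. Hoxc13 is the most covered in H3K4me3, 10 rows are empty there, and 31 rows are empty for H3K27ac.

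By paralog group, mean H3K4me3 coverage at the starts was higher over groups 10 to 13 than over groups 1 to 4, a comparison that was not tested. Mean Control coverage was 13.6% ± 1.24 (SD, n = 2) over the 12 genes of groups 10 to 13, 11.7% ± 0.887 over the 15 of groups 5 to 9, and 9.22% ± 0.259 over the 11 of groups 1 to 4. Group 13 alone had 24.5% ± 2.43, and all 4 of its genes had a peak in every library, whereas group 10 had 2.32% ± 0.318. The order was not a smooth gradient, since group 12 was at 20.4% ± 4.47 and group 11 at 6.00% ± 1.56. Groups 10 and 11 thus lay below the mean of groups 1 to 4, and the higher posterior mean came from groups 12 and 13. In KO2 the groups 10 to 13 had 12% ± 0.239, groups 5 to 9 11.2% ± 1.02 and groups 1 to 4 7.94% ± 2.17.

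Promoter H3K27ac was rare: 31 of the 38 promoters had none in any library. A peak lay at 1 and 1 promoters in Control, 2 and 0 for KO1, and 3 and 5 for KO2. Besides Hoxc13 and Hoxd13, the promoters that had one were Hoxa4 (3.75% in KO2 replicate 1), Hoxb9 (6.52% and 8.37% in KO2), and Hoxc12 (7.60%), Hoxd8 (4.47%) and Hoxd12 (1.72%), these 3 in KO2 replicate 2 alone.

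Compared with other homeobox transcription factor genes of development, Hox starts had less H3K4me3. The median Control coverage was 6.86% over 38 Hox genes, 13.8% over 65 other homeobox genes, and 18% over all 17510 genes. A peak in all 6 libraries was found at 47.4%, 63.1% and 58.0% of them. Coverage varied within the 65, with Control means of 0% at Pax6 and 18.5% at Otx2. H3K27ac was absent from every library at 81.6% of Hox genes, 73.8% of other homeobox genes and 46.9% of all genes. Of the 50 other homeobox genes tested for H3K4me3, 1 was lower and 0 higher for both lines, beside 4.19% and 0.674% of all tested promoters (Pou4f2, 68.5% and 56.3% in Control, 22.3% and 16.9% for KO1, and 45.7% and 22.3% for KO2). For H3K27ac 2 of 2 tested were higher, Hhex and Gbx2, beside 68.3% of all tested promoters. Gbx2 had means of 0% in Control, 0% for KO1 and 20.7% for KO2, so it was tested only because KO2 was high. Hhex had 2.21% in Control, below the mean needed for the test, 10.0% for KO1 and 38.3% for KO2. The count of 2 is therefore a description. These lists were set side by side and not tested against each other.

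**Figure D5:**
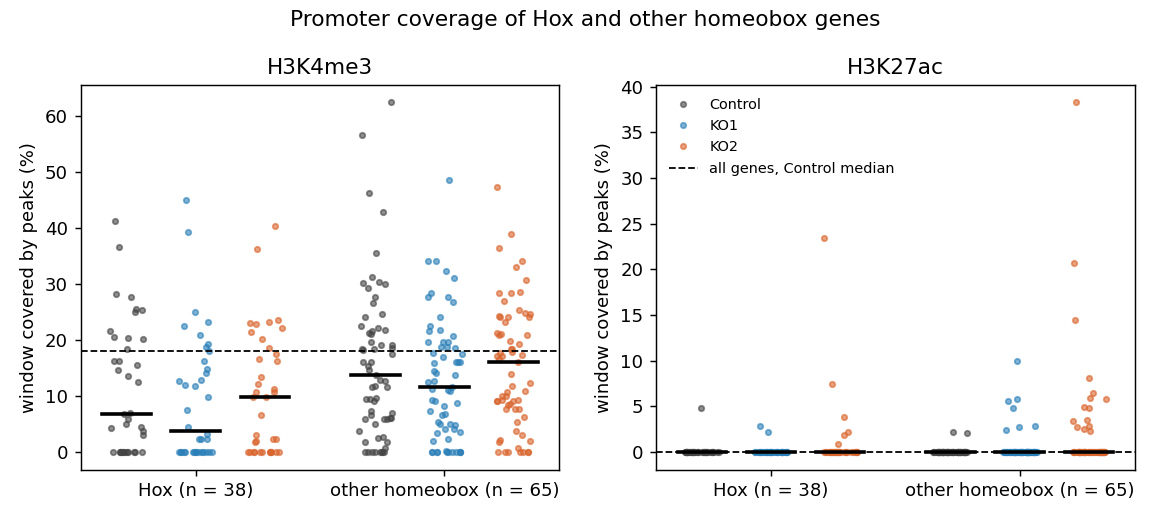
Mean coverage of the promoter window by H3K4me3 (left) and H3K27ac (right) peaks for 38 Hox and 65 other homeobox genes, 1 dot per gene and genotype (Control grey, KO1 blue, KO2 orange), with black bars at the medians and a dashed line at the Control median of all genes. The Hox median of H3K4me3 in Control, 6.86%, lies below that of other homeobox genes, 13.8%.

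Hox cofactors and regulators (Meis, Pbx, Cdx, retinoic acid receptors, Kmt2a and others) were mostly marked. Of 22 with a placed start, 21 were tested for H3K4me3 and 0 were called, and 11 were tested for H3K27ac, of which 7 were higher, near the 68.3% of all tested promoters. In Control, 14 of the 22 had no H3K27ac, so some of the 11 reached the 5% mean only through knockout libraries. The count is a description. Kmt2a, whose product methylates H3K4 at Hox genes, had H3K27ac coverage of 14.4% and 21.8% in Control, 26.1% and 15.9% for KO1, and 59.4% and 49.9% for KO2 (19.7 points for both lines, SE 4.48, limma adjusted p = 0.00668). Of 17 genes flanking the clusters, 16 were tested for H3K4me3 and 1 was lower, beside 4.19% of all tested promoters: Hibadh beside HoxA, from 39.3% and 40.2% to 21.2% and 25.9% for KO1 and 25% and 25.1% for KO2 (-15.4 points, SE 2.63, adjusted p = 0.0245). For H3K27ac, 8 of the 12 tested flanking genes were higher, again near 68.3%.

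The clusters also hold microRNA genes, shown here because those of different clusters share a seed. Mature sequences from RefSeq run 5′ to 3′, with the seed (bases 2 to 8) in capitals.
mmu-miR-10a-5p: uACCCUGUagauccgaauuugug
mmu-miR-10b-5p: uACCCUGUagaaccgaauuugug
mmu-miR-196a-5p: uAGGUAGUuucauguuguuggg
mmu-miR-196b-5p: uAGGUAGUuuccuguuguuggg

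The miR-10 pair shares the seed ACCCUGU and the miR-196 group AGGUAGU. Around the Mir10a hairpin, upstream of Hoxb4 (chromosome 11, 96317165 to 96317274, with 2 kb on each side), H3K4me3 coverage was 14.7% and 13.5% in Control, 10.1% and 21.0% for KO1, and 14.0% and 8.59% for KO2. Around Mir10b, inside Hoxd4 (chromosome 2, 74726070 to 74726137), it was 13% and 15.2%, 14.0% and 7.25%, and 13% and 4.28%. The groups overlapped at both. The Mir10a window takes in the Hoxb4 start, and the only H3K4me3 region in it was that of Hoxb4, at 96318320 to 96319388. Its values are therefore those of the Hoxb4 region and no separate mark of the microRNA gene. The miR-196 hairpins had no H3K4me3 peak at Mir196b and Mir196a-2, and Mir196a-1 had one in a single Control library, at 5.07%. None of these hairpins had H3K27ac in any library.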

How the data were processed

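Immunoprecipitated DNA for 2 histone marks was sequenced in 12 libraries of 3 genotypes. The submitters' processing notes name mm10, CASAVA, Trimmomatic 0.38, Bowtie 1.2.2 and MACS2. The authors deposited 1 peak list per library, in which a peak has a fold enrichment (a ratio), a −log10 p and a −log10 q, all computed by the authors. The lowest −log10 q was above 2 in every list, a q under 0.01. The role of spike-in reads and inputs in the calling is not stated. Peak coverage depends on depth and threshold, and depth is unknown.

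Coverage is the percent of bases under a peak of a library. Starts came from RefSeq's GRCm38.p6 promoter table (22 Hox genes) or, for 16 Hox genes, from the 5′ gene end, with the strand shared by the cluster, because the gene table has no strand. 1 Hox gene is not reported here, and the HoxA span runs over the other 10. Clusters were compared with a two-sided exact permutation test (15 assignments) with Benjamini-Hochberg adjustment over 8 comparisons. Promoter windows and 5-kb tiles with a mean of at least 5% were fitted over the whole genome with limma 3.58.1 in R 4.3.3 (empirical Bayes with trend, Benjamini-Hochberg, threshold 0.05), all 6 libraries of a mark sharing 1 spread. The fit was tested on simulated data.

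The members and lists were chosen with earlier results of these data known. Named genes were, per cluster and mark, those called, those with the highest and lowest Control coverage and the one with the largest difference, and 3 per other list. The 140-kb windows and the whole-gene window were added after seeing the data. Alternatives were another peak threshold, equal peak numbers, quantile normalization, other windows, flanks and tiles, no filter, each library left out and the replicate number as a block.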

Additional observations from a re-analysis of the deposited data

Results flagged for a closer look

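H3K27ac coverage differed between the lines, by the limma term for KO2 minus KO1 at an adjusted p under 0.05, at 1 Hox promoter and 4 tiles of 5 kb, each time with more coverage in KO2. The HoxB tile over Gm53 (40.6 points, adjusted p = 0.00131) and the HoxA tile over Hotairm1 and Hotairm2 (10.1 points, adjusted p = 0.0303) also reached the 5% mean without KO2. The other features reached it only through KO2, so their differences are descriptions: 21.2 points at the Hoxc13 promoter, 17.0 points in the tile that holds its start and 19.0 points in the HoxB tile over Gm30134. The same contrast was called higher at 77.7% of tested promoters and 58.6% of tested tiles of the genome, so a higher call alone sets these Hox features apart little. The median difference was 14.8 points over tested promoters and 11.5 points over tested tiles. After quantile normalization 0 Hox promoters and 1 Hox tile, that over Gm53, were called. Over the genome, 268 of 7405 promoters and 2154 of 21484 tiles were then called higher. H3K27ac lists covered 36.2 Mb ± 1.10 (SD, n = 2) in KO2 and 18.5 Mb ± 1.5 in KO1.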

How the results depend on the processing

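No cluster p can fall under 0.0667, so its side of the threshold shows nothing about stability. In size, 65 of the 88 recomputed cluster differences were within 1.5 times of the reported one, 20 moved further and 3 changed sign. The 65 include the replicate block of each cluster and mark, which cannot change a difference of means in this balanced design. Of 75 recomputed values of single called promoters and tiles, 28 lost their call, 7 of them by quantile normalization. With equal peak numbers HoxD H3K27ac was -0.164 points (from -0.0372). Divided by genome coverage, the H3K4me3 difference turned to 0.00166 in HoxA, 0.0115 in HoxB and 0.0228 in HoxC (percent of the span per Mb covered), while HoxD stayed lower at -0.0208. HoxA H3K27ac was -0.0914 points without the flanks. HoxD H3K27ac ran from -0.114 to 0.0400 points when single libraries were left out. Quantile normalization also changed the H3K27ac balance, from 5056 higher and 2 lower promoters of the genome to 95 and 19. H3K27ac calls of Hox promoters numbered 2 with no filter and 0 after quantile normalization, and no Hox promoter could be tested for H3K27ac at equal peak numbers or over whole genes. For both lines minus Control, whole genes gave 2 lower H3K4me3 calls, where 36% of genes were lower. These were Hoxc9 (-3.72 points, limma adjusted p = 0.0167) and Hoxd13 (-4.03 points, adjusted p = 0.0215). For KO1 minus Control the lower calls were Hoxd13 and Hoxa9 (Hoxa9 -5.41 points, limma adjusted p = 0.0340), beside 2149 of 8644 tested genes. For KO2 minus Control they were Hoxd13 and Hoxc9, beside 3026 of 8644. With overlaps of at least 500 bp, 0.333 Hox promoters per library had an H3K27ac peak.

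H3K4me3 tile calls ran from 0 to 2 when single libraries were left out, and 10-kb tiles gave 1; quantile normalization gave 1 higher and 1 lower in place of 2 lower. H3K27ac tile calls were 0 after quantile normalization, 2 with 10-kb tiles, and 1 to 5 when single libraries were left out: 1 without either Control library and 3 without KO2 replicate 2. Replicate numbers did not pair the libraries (correlations of deviations from -0.00238 to 0.0194), and with the replicate number as a block the counts for both lines were the same, 0 and 1 promoters and 2 and 5 tiles; the smallest p it allows for a cluster is 0.111.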
